A study of Homo sapiens with 8 samples.

Results

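The zinc finger genes of chromosome 19 were examined in SW1990 cells, a human line derived from a pancreatic adenocarcinoma. A gene was included if the deposited gene table annotated it as protein coding, placed it on chromosome 19 and named it ZNF followed by digits alone. This rule used no expression value and was met by 241 of the 38637 genes in the table, the members of the family described here. The same name form was found for 236 protein-coding genes on other chromosomes, and chromosome 19 held 1148 other protein-coding genes. Poly(A)-selected RNA had been sequenced in 8 libraries, which formed 4 groups of 2. Vector cells, labelled replicates 2 and 3, were the controls of EBF2-OE cells, in which the transcription factor EBF2 was overexpressed. Vehicle cells, labelled replicates 1 and 2, were the controls of cells given GSK-LSD1, an inhibitor of the histone demethylase LSD1 (encoded by KDM1A), at a dose that the library titles give as 2000 uM. This dose is uncertain, since the doses the study describes for these cells in culture are far lower, and LSD1 activity was not measured in these libraries. All 4 groups were the same line, and the study's description of the RNA-seq names it SW1990-luc, that is, SW1990 cells labelled with luciferase. The length of treatment, the promoter driving EBF2 and the number of independent cultures are not given in the labels, so p-values measure the spread between these libraries, which may be technical. In bulk RNA, fewer expressing cells and less RNA per cell cannot be told apart.

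Most zinc finger proteins of this family carry an array of C2H2 fingers, in which paired cysteines and histidines hold a zinc ion and the residues between them read DNA bases. Many also carry a Krüppel-associated box (KRAB) at the amino terminus, which binds TRIM28 (KAP1), a scaffold that brings in the histone methyltransferase SETDB1, HP1 proteins and the NuRD complex and so silences chromatin, above all at transposable elements. The genes multiplied by tandem duplication, which is why chromosome 19 holds them in dense clusters of related copies. LSD1 is found in NuRD- and CoREST-type complexes, and EBF2 was studied here as a protein that binds histone H3 monomethylated at lysine 4.

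Of the 241 genes, 240 matched a coding transcript of GENCODE release 44, and ZNF781 did not. A KRAB box was found in 208 of them and not found in 32. The 2 classes differed in what their transcripts are made of. The median GC content of the transcript was 41.9% with a KRAB box (33.2 to 63.5%) and 62.1% without it (35.9 to 70.9%). A GC content above 55% was found in 22 of the 32 genes without a KRAB box and in 4 of the 208 with it, namely ZNF71, ZNF584, ZNF324 and ZNF446. KRAB genes encoded a median of 13 fingers (3 to 36), and ZNF91, a repressor of SVA retrotransposons, encoded 31. Genes without the box encoded a median of 9 fingers (1 to 20). In the examples below, a difference in base composition can be read within the finger itself. The first matched finger of 6 genes is given because these genes carry the comparisons, with the codons of the 2 cysteines and 2 histidines in capitals. ZNF580, ZNF579 and ZNF865 have no KRAB box, whereas ZNF836, ZNF468 and ZNF551 have it.
ZNF580: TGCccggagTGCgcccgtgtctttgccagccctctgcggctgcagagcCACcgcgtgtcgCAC
ZNF579: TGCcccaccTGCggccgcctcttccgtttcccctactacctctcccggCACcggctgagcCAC
ZNF865: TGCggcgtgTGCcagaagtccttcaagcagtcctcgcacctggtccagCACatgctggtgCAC
ZNF836: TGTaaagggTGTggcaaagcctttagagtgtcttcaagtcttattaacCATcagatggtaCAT
ZNF468: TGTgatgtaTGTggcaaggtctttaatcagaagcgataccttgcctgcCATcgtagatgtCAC
ZNF551: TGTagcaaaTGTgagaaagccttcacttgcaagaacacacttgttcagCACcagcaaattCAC

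These runs of 63 bases were read from hg38 on the coding strand, at chr19:55642788-55642850 for ZNF580 (plus strand), chr19:55579442-55579504 for ZNF579 (minus), chr19:55614294-55614356 for ZNF865 (plus), chr19:52156963-52157025 for ZNF836 (minus), chr19:52841499-52841561 for ZNF468 (minus) and chr19:57687032-57687094 for ZNF551 (plus). All lie in coding exons. The 3 genes without a KRAB box spelled their zinc-binding cysteines TGC and their zinc-binding histidines CAC, and their fingers held 71.4, 69.8 and 61.9% GC. In the 3 KRAB genes both zinc-binding cysteines were TGT, both histidine codons occurred among the zinc-binding histidines and the GC content was 39.7, 46.0 and 42.9%. The same 4 zinc ligands were thus written in different bases.

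The 250 bases before the start site are given for ZNF580 and ZNF836 because both were lower with GSK-LSD1. CG dinucleotides are in capitals.
ZNF580: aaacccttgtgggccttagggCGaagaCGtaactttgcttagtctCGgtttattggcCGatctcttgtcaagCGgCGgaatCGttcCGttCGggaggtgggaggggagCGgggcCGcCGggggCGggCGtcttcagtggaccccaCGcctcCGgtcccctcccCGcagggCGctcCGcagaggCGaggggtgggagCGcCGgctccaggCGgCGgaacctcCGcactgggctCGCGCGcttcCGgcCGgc
ZNF836: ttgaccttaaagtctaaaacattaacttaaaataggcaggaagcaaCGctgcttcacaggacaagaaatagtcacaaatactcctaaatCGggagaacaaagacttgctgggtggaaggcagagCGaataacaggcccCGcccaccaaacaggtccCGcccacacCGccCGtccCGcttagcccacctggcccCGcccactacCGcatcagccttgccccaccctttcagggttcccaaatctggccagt

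Both come from RefSeq on GRCh38.p14, at chr19:55640752-55641001 (plus strand) and chr19:52171622-52171871 (minus strand). The ZNF580 promoter held 30 CG dinucleotides, a number reached by 12.2% of the 27305 promoters of this length in the RefSeq table. The ZNF836 promoter held 10, a number reached by 51.9% of them. The pair does not stand for the classes, since ZNF579 held 10 as well and the KRAB gene ZNF468 held 23. Among the 210 genes with a RefSeq promoter, the median was 15 CG dinucleotides for 179 KRAB genes and 20 for 31 genes without the box, against 11 over all promoters. A count of CG dinucleotides describes the window and is no measure of methylation, which was not assayed in these libraries.

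With a gap of more than 1 Mb starting a new cluster, the genes fell into 16 position clusters. The largest were cluster 16 at the end of the long arm (57 genes, chr19:55476603-58489533), cluster 15 (39 genes, chr19:51571283-53580269), cluster 5 beside the centromere (37 genes, chr19:19668070-24129968), clusters 3 and 9 (25 each) and cluster 12 (24). Levels are given in TPM, which divides counts by gene length and scales them to the same total in each library. Comparisons between genes rest on the deposited length, which was 1162 bases for ZNF428 and 20393 for ZNF91. Whether this length fits the transcripts present was not tested. Most of these genes were transcribed at a low level. Their median over the 8 libraries was 2.62 TPM among the 240 matched genes, 166 of which reached 1 TPM and 22 reached 10 TPM. KRAB genes had a median of 2.28 TPM and genes without the box 7.8 TPM, and 14 of the 32 without it reached 10 TPM against 8 of 208 with it. The 12 genes at 0 in every library all had a KRAB box. A total of 9 of them lay in cluster 5, 2 in cluster 3 and 1 in cluster 9. Of these 12, ZNF625, ZNF98 and ZNF208 share 74.5, 34.7 and 26.0% of the 100-base windows of their transcripts with other genes. The rest share 18.4% or less. Over the family, 17 KRAB genes and 0 genes without the box share more than 20%, so reads of such genes could be assigned to copies. Cluster 5 had a median of 0.389 TPM, the lowest among the clusters of 15 or more genes, and cluster 2 the highest (5.21 TPM).

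**Figure D1:**
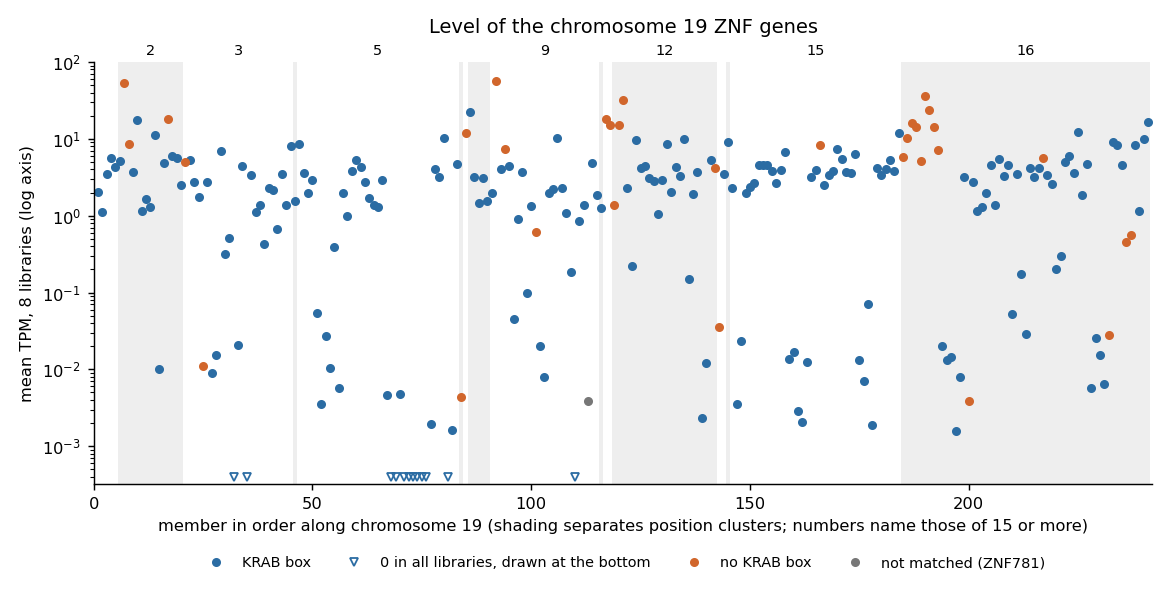
Mean TPM over 8 libraries of the 241 genes (vertical log axis) in their order along chromosome 19 (horizontal axis), with blue points for KRAB genes, orange points for genes without a KRAB box and open triangles for the 12 genes at 0 in every library. The highest points are orange, ZNF146 (57.0 TPM) and ZNF358 (52.9 TPM), but orange points also lie near the bottom, such as ZNF835 (0.0039 TPM). Of the 12 triangles, 9 lie in cluster 5.

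ZNF146 had the highest level of the family. It encodes a protein made up almost entirely of fingers that was described as overexpressed in pancreatic cancer. It lies at chr19:36214751-36238768, and its values were 60.1 and 63.3 TPM in Vector, 62.0 and 54.8 in EBF2-OE, 53.9 and 55.2 in Vehicle and 55.3 and 51.6 in GSK-LSD1, so that the libraries lay close together in all groups. The next genes by mean level were ZNF358 (52.9 TPM), ZNF581 (36.2), ZNF428 (32.4), ZNF580 (23.8), ZNF302 (22.7), ZNF121 (18.3), ZNF574 (17.9), ZNF317 (17.4) and ZNF446 (16.7). Among these 10, ZNF302, ZNF317 and ZNF446 had a KRAB box. ZNF580 lies within the coordinates of ZNF581 on the same strand, so reads over shared sequence could be assigned to either gene and the 2 levels are uncertain.

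The libraries held 20453362 to 27054876 counts, of which the 241 genes took 0.169 to 0.198%, and 174 to 180 of the genes had at least 10 counts. The level of EBF2 was 0.447 to 0.849 TPM in 6 libraries and 146 and 2037 TPM in the EBF2-OE libraries 2 and 3, which therefore differed widely in the overexpressed gene. The keratins KRT7, KRT8 and KRT18 were at 459 TPM or more in every library, whereas the epithelial markers KRT19, EPCAM and CDH1 did not exceed 1.57 TPM. Of the markers of other cell types, PTPRC, PECAM1, DCN, PRSS1, CPA1 and INS did not exceed 1.11 TPM, and COL1A1 was at 30.5 to 45.2 TPM. The libraries also differed by base composition. The median log2 deviation of genes with transcripts above 60% GC exceeded that of genes at 45% or less by 0.33 and 0.23 in Vehicle and by 0.08 and 0.17 in GSK-LSD1. The same difference was -0.08 and -0.35 in Vector and -0.36 and -0.03 in EBF2-OE. Both Vehicle libraries thus lay above all other libraries in this measure, whereas Vector and EBF2-OE overlapped. The limits of 45, 55 and 60% GC were set after the values had been seen.

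Overexpression of EBF2 was compared with Vector to ask which genes follow EBF2. No gene of the family was called in either direction at a fold change above 1.5 and an adjusted p under 0.05, with edgeR's quasi-likelihood test and Benjamini-Hochberg adjustment. Among all 15560 genes tested, 0% were called higher and 0% lower, while 208 had an unadjusted p under 0.05. EBF2 itself was thus not called either, despite 28 and 28 counts in Vector and 5818 and 90100 in EBF2-OE. In counts simulated for this comparison, 41.0% of 200 genes changed 2-fold were recovered, beside 81.0% for GSK-LSD1 against Vehicle. The lack of calls therefore does not show that the family was unchanged. Of the family 177 genes were tested and 1 had an unadjusted p under 0.05, and DESeq2 called 0 of them. Their median log2 fold change was -0.08 against 0.00 over all genes, and 58 of the 177 were positive. ZNF genes on other chromosomes had a median of -0.09, with 69 of 208 positive. Without Vector 2 the family's median became 0.06, so its sign rested on that library. Without EBF2-OE 2, the library with less EBF2, it was -0.10, and without EBF2-OE 3 it was -0.09, and no gene of the family was called without either library. By position, the medians of clusters 3 and 16 were -0.19 each, with 5 of 19 and 9 of 41 genes positive, and cluster 12 lay at -0.02. Both EBF2-OE libraries lay below both Vector libraries for 27 of the 177 genes (15.3%), against 10.8% of all genes, and above them for 15 (8.47%), against 12.1%. The summed level of the family was 1094 and 946 TPM in Vector and 928 and 944 TPM in EBF2-OE, a ratio of 0.918 (exact permutation p = 0.33, two-sided, the smallest that 2 against 2 libraries allow).

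The 5 genes of the family with the smallest unadjusted p were ZNF763, ZNF507, ZNF527, ZNF134 and ZNF699, none of them called. ZNF763, a KRAB gene of cluster 3 (chr19:11965040-11980617), was at 0.178 and 0.154 TPM in Vector and at 0.585 and 0.808 TPM in EBF2-OE. Both EBF2-OE libraries were higher, with a log2 fold change of 2.07 ± 0.591 (SE, n = 2 each), but these levels rest on 4 and 4 counts against 13 and 20. It shares 46.0% of the 100-base windows of its transcript with other genes and its adjusted p in edgeR was 1.00. The other 4 were lower in EBF2-OE, from -0.30 for ZNF507 to -0.56 for ZNF699 on the log2 scale, and their libraries did not overlap between the groups. ZNF507, which has no KRAB box, was at 15.6 and 15.4 TPM in Vector and at 12.6 and 12.1 TPM in EBF2-OE.

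GSK-LSD1 was compared with Vehicle to ask which genes change when LSD1 is inhibited. Of the 179 genes tested, 9 were called lower (5.03%) and 0 higher in edgeR, against 2.04% lower and 2.53% higher of all 16059 genes tested. Of 207 ZNF genes tested on other chromosomes, 2.9% were called lower and 0 higher. Of 811 other protein-coding genes tested on chromosome 19, 3.7% were called lower and 3.58% higher. The median log2 fold changes of these 2 sets were -0.07 and -0.08, beside -0.03 for the family. In the family, DESeq2 and an unadjusted p under 0.05 with the same fold limit also gave 0 higher. The genes called lower were ZNF579, ZNF580, ZNF428, ZNF865, ZNF358, ZNF444, ZNF836, ZNF414 and ZNF628. A KRAB box was present in ZNF836 and absent from the other 8, all of whose transcripts held more than 60% GC. Of the 152 KRAB genes tested 1 was called, and of the 27 without the box 8 were called (29.6%). The median log2 fold change was -0.02 for the KRAB genes tested and -0.46 for the 27 without the box, against -0.01 for all genes. These medians and counts describe classes compared after the values were seen, and the difference between the classes was not tested.

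ZNF579, in cluster 16 (chr19:55576774-55580848), had the largest log2 fold change among those called. Its level was 29.4 and 13.2 TPM in Vehicle and 7.32 and 9.17 TPM in GSK-LSD1. The groups did not overlap, though the Vehicle libraries differed from each other more than the Vehicle 2 library differed from GSK-LSD1. The log2 fold change was -1.34 ± 0.300 (SE, n = 2 each, adjusted p = 0.0114 in edgeR). It was -0.63 without Vehicle 1 and -1.82 without Vehicle 2.

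ZNF580 (chr19:55641002-55643470), which encodes 3 fingers in 172 residues, was at 61.0 and 35.3 TPM in Vehicle and at 20.1 and 24.6 TPM in GSK-LSD1. Both treated libraries were lower, and the log2 fold change was -1.08 ± 0.214 (adjusted p = 0.00642, edgeR). Its neighbour ZNF581 was at 63.6 and 61.1 TPM in Vehicle and at 36.5 and 45.3 TPM in GSK-LSD1. It was lower in both treated libraries too, but its log2 fold change of -0.58 did not reach the fold limit (adjusted p = 0.00238, edgeR).

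ZNF358, in cluster 2 (chr19:7515286-7521025), was at 116 and 80.8 TPM in Vehicle and at 56.9 and 57.0 TPM in GSK-LSD1. The treated libraries were nearly equal and both lay below the controls, with a log2 fold change of -0.76 ± 0.137 (adjusted p = 0.00384, edgeR). ZNF428, in cluster 12 (chr19:43607224-43619629), was at 68.1 and 48.6 TPM in Vehicle and at 30.4 and 31.9 TPM in GSK-LSD1, a log2 fold change of -0.87 ± 0.149 (adjusted p = 0.00276, edgeR). It is the gene whose call was found in every fit without a library. ZNF865 (chr19:55605647-55617269), whose 20 fingers are the most in the class without a KRAB box, was at 30.6 and 20.4 TPM in Vehicle and at 14.1 and 14.3 TPM in GSK-LSD1. Again the treated libraries were lower and closer together than the controls. The counting is not stated to use strand, and ZNF358, ZNF428 and ZNF865 overlap genes on the other strand, so that reads of these partners could enter their counts.

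ZNF444, ZNF414 and ZNF628 were lower by less. ZNF444, a gene with a SCAN domain, was at 13.6 and 8.85 TPM in Vehicle and at 7.42 and 6.85 TPM in GSK-LSD1, a log2 fold change of -0.62 ± 0.173 (adjusted p = 0.0308, edgeR). ZNF414 and ZNF628 had log2 fold changes of -0.60 each. ZNF836 (chr19:52154050-52171664) was the KRAB gene called, and it differed from the rest in its controls, of which Vehicle 2 was the higher. It was at 3.36 and 3.79 TPM in Vehicle and at 2.26 and 2.30 TPM in GSK-LSD1, a log2 fold change of -0.61 ± 0.151 (adjusted p = 0.0181, edgeR). It shares 11.5% of its 100-base windows with other genes.

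**Figure D2:**
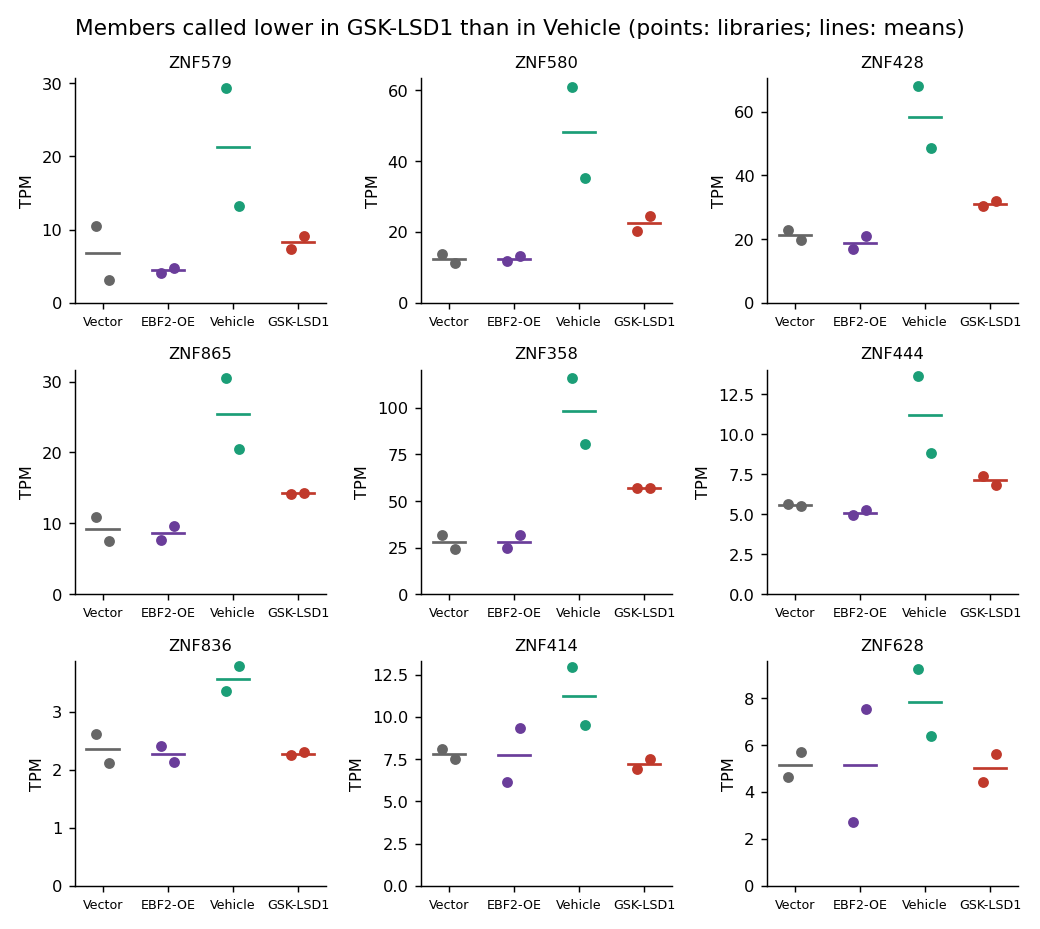
Level in TPM (vertical axes from 0) of the 9 genes called lower in GSK-LSD1 than in Vehicle, in each of the 8 libraries by group; points are libraries and lines the mean of 2. In every panel both GSK-LSD1 points lie below both Vehicle points, and Vehicle 1 is the higher control for all but ZNF836.

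These calls depended on single libraries and on how base composition was handled. Without Vehicle 1, the log2 fold changes of ZNF580, ZNF358, ZNF865 and ZNF444 were -0.61, -0.45, -0.47 and -0.26. Those of ZNF428, ZNF414 and ZNF628 were then -0.59, -0.35 and -0.29, and that of ZNF836 was -0.68. Lower calls fell without Vehicle 1 or either GSK-LSD1 library and rose without Vehicle 2, over all genes as in the family. Over the fits without 1 library, ZNF579 ranged from -1.82 to -0.63, the widest range of the 9. DESeq2 called 3 lower (ZNF358, ZNF428 and ZNF628), beside 185 of all 25498 genes. A fit over all 8 libraries called 0, beside 15 of all 16558 genes. A fit with GC content as an offset called 4 (ZNF428, ZNF579, ZNF580 and ZNF836), beside 231 of all 14626 genes. The main fit called 328 of all 16059 genes lower, so calls over all genes fell in each of these fits too. In the fit over 8 libraries the log2 fold changes hardly moved (ZNF428 -0.87, ZNF358 -0.76, ZNF580 -1.08), whereas with the offset ZNF358 became -0.43, ZNF865 -0.39, ZNF444 -0.31 and ZNF628 -0.19, and ZNF428 was at -0.82. Genes of like composition moved in the same direction across the genome: 3.97% of all genes tested above 55% GC and 6.03% above 60% GC were called lower, against 0.566% at 45% GC or less. Of the family's genes without a KRAB box and above 55% GC, 19 were tested, 17 had negative log2 fold changes, 8 were called lower and the median was -0.60, against -0.07 over all genes above 55% GC. That limit is a loose match, since the 9 genes called lower had a median of 68.7% GC. Over all genes the median was -0.08 from 60 to 65% GC, -0.21 from 65 to 70% and -0.54 from 70 to 75%. The 8 without a KRAB box and at or under 55% GC had a median of 0.07 and none was called. The 4 KRAB genes above 55% GC had negative values (median -0.13) and none was called. The part of base composition in these differences beyond the fit with the offset was not tested.

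In the comparison of libraries one by one, both GSK-LSD1 libraries lay below both Vehicle libraries for 50 of the 179 genes (27.9%), against 30.2% of all genes, and above them for 29 (16.2%), against 30.0%. Among the genes with positive values, ZNF556 was at 2.91 and 2.998 TPM in Vehicle and at 3.89 and 4.61 TPM in GSK-LSD1. Both treated libraries were higher, but the log2 fold change of 0.56 ± 0.124 did not reach the fold limit (adjusted p = 0.0110, edgeR), and this gene was named after its values were seen. The summed level of the family was 1185 and 1086 TPM in Vehicle and 929 and 961 TPM in GSK-LSD1, a ratio of 0.832. Its KRAB genes summed to 564 and 589 TPM against 547 and 558 TPM, a ratio of 0.959. The genes without the box summed to 621 and 496 TPM against 382 and 403 TPM, a ratio of 0.702. None of these groups of libraries overlapped, and each exact permutation p was 0.33, the smallest possible.

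By position, the calls lay mostly at the start of cluster 16. The longest run of neighbouring genes without a KRAB box, from ZNF628 to ZNF444 (9 genes, chr19:55476603-56160893), held 5 of the 9 calls. All 9 of its genes had negative log2 fold changes with GSK-LSD1, from -1.34 to -0.16, with a median of -0.60. Their transcripts all hold 61.8 to 70.9% GC, so position and base composition cannot be told apart in this run. In the other 35 tested genes of cluster 16 the median was -0.11 and none was called. In cluster 15 the signs went the other way for most genes, 20 of 28 being positive with a median of 0.13, although its ZNF836 was called lower. The genes of cluster 15 had a median of 41.0% GC. Of all genes at 45% GC or less, 58.7% were positive, with a median of 0.04. Cluster 5 (10 of 19 positive, median 0.02) and cluster 9 (10 of 18 positive, median 0.01) lay near 0. The run from ZNF628 to ZNF444 was also low in Vector against Vehicle. Its median there was -1.14 and 6 of its 9 genes were called lower. That comparison uses the same Vehicle libraries, so a high value in these enters both. In EBF2-OE against Vector, which has no Vehicle library, the median of the run was -0.14 and 0 of its genes were called.

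**Figure D3:**
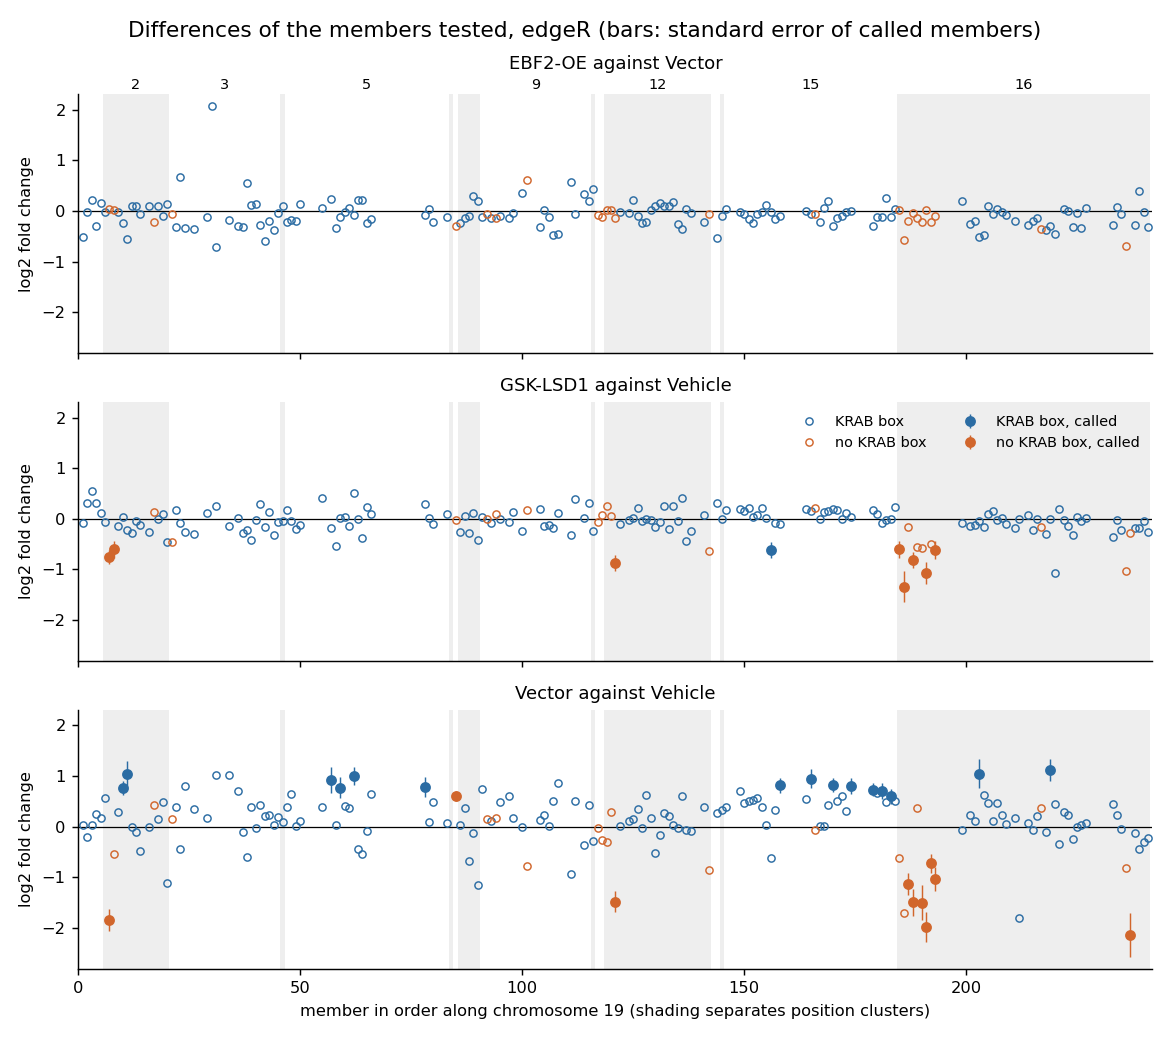
Log2 fold change (vertical axes) of the genes tested in each comparison in their order along chromosome 19 (horizontal axis), with filled points and standard errors for called genes. No point is filled for EBF2-OE against Vector, 9 are filled below 0 for GSK-LSD1 against Vehicle, and Vector against Vehicle shows 16 above and 9 below 0.

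The 2 control groups were compared as a measure of how far the experiments differ without EBF2 or GSK-LSD1. Carrying the vector, receiving vehicle and any difference in culture or processing cannot be told apart here. Of 179 genes tested, 16 were called higher in Vector (8.94%) and 9 lower (5.03%) in edgeR, against 5.79% higher and 10.2% lower of all 16019 genes tested. The family's median log2 fold change was 0.16 against 0.00 for all genes. Of 206 ZNF genes tested on other chromosomes, 5.34% were called higher and 5.34% lower, with a median of 0.05. Of 800 other protein-coding genes tested on chromosome 19, 2.5% were called higher and 19.2% lower, with a median of -0.27. A KRAB box was present in 15 of the 16 genes called higher, as in 152 of the 179 tested, and in none of the 9 called lower. Of the KRAB genes 9.87% were called higher, beside 9.07% of all genes at 45% GC or less. Their median was 0.22 with 75.7% positive (115 of 152), beside 0.16 and 66.1% for all genes at 45% GC or less. The genes without the box had a median of -0.61. The classes differ in base composition, and the part of the box itself was not tested.

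Of the 16 genes higher in Vector, 7 lay in cluster 15 and 4 in cluster 5. In cluster 15, 26 of 28 genes were positive with a median of 0.50, and the calls were ZNF480, ZNF701, ZNF468, ZNF160, ZNF845, ZNF765 and ZNF813. ZNF468 (chr19:52838010-52857619), which encodes 10 fingers, was at 9.75 and 10.3 TPM in Vector and at 5.40 and 5.78 TPM in Vehicle. The groups were well apart, with a log2 fold change of 0.83 ± 0.131 (adjusted p = 0.0139, edgeR). EBF2-OE held 7.34 and 8.60 TPM of it and GSK-LSD1 5.74 and 6.73 TPM. All 4 libraries of the EBF2 experiment thus lay above all 4 of the LSD1 experiment.

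ZNF551, in cluster 16 (chr19:57681977-57690648), had the largest log2 fold change among the genes called higher. It was at 3.50 and 4.28 TPM in Vector and at 1.80 and 1.73 TPM in Vehicle, a log2 fold change of 1.12 ± 0.214 (adjusted p = 0.0198, edgeR). In cluster 5, ZNF708 was at 3.50 and 3.60 TPM in Vector and at 1.69 and 1.81 TPM in Vehicle, a log2 fold change of 1.00 ± 0.182 (adjusted p = 0.0178, edgeR). For both genes the 2 Vector libraries lay above the 2 Vehicle libraries. ZNF460, ZNF699, ZNF66 and ZNF724 were also among the 10 with the largest log2 fold changes, from 0.79 for ZNF724 to 1.05 for ZNF460. ZNF724 shares 51.5% of its 100-base windows with other genes, so its counts could be split with copies. ZNF507 was the gene without a KRAB box called higher, at a log2 fold change of 0.60, and its transcript holds 39.4% GC.

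**Figure D4:**
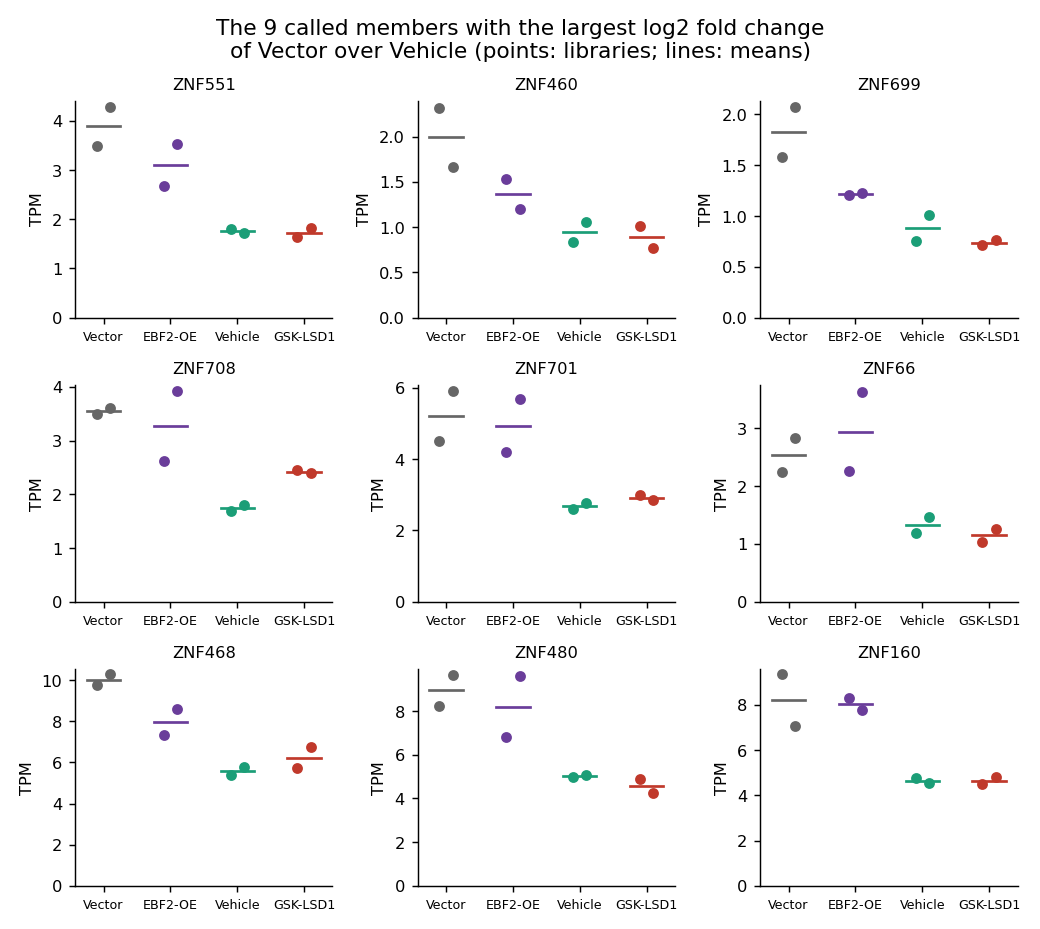
Level in TPM (vertical axes from 0) in each of the 8 libraries by group for the 9 called genes with the largest log2 fold changes of Vector over Vehicle, all with a KRAB box; points are libraries and lines the mean of 2. Both Vector points lie above both Vehicle points in every panel.

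The 9 genes lower in Vector were ZNF837, ZNF580, ZNF358, ZNF581, ZNF865, ZNF428, ZNF524, ZNF444 and ZNF787, with 60.2 to 70.9% GC. ZNF358 was at 31.6 and 24.3 TPM in Vector against the 116 and 80.8 TPM of Vehicle, a log2 fold change of -1.84 ± 0.218 (adjusted p = 0.00902, edgeR). ZNF580 was at 13.6 and 11.3 TPM in Vector, a log2 fold change of -1.98 ± 0.295 (adjusted p = 0.0124, edgeR). Both genes were lower in Vector than in any library of the LSD1 experiment. ZNF837 had the largest value, -2.13 ± 0.438, but on 6 and 4 counts in Vector and 23 and 30 in Vehicle. In all genes above 60% GC, 25.1% were called lower, and 9.07% of those at 45% GC or less were called higher. With GC content as an offset, 7 genes of the family were called higher, all among the 16, and 8 lower. Of these 8, ZNF358, ZNF428, ZNF580 and ZNF581 were among the 9 lower without the offset, and ZNF493, ZNF738, ZNF836 and ZNF846 were not and have a KRAB box, so the absence of KRAB genes from the lower calls did not hold with the offset. The log2 fold change of ZNF358 became -0.90 and that of ZNF865 -0.32, and ZNF787 turned from -0.72 to 0.38. Without Vehicle 1 no gene was called in either direction, and over all genes only 2 were called higher and 10 lower. Calls also fell without Vehicle 2 and rose without Vector 2 or Vector 3, over all genes as in the family. The log2 fold changes of the 10 named genes called higher stayed positive in the fits without 1 library, but moved to unlike degrees. ZNF708 had the narrowest range (0.958 to 1.055) and ZNF701 the widest (0.708 to 1.155), and ZNF551 ranged from 0.945 to 1.29. Without Vehicle 1 and without Vehicle 2, respectively, ZNF551 was at 1.17 and 1.08 (1.12 with both), and ZNF708 at 0.97 and 1.03 (1.00 with both). Without Vehicle 1, ZNF444 moved to -0.67 from -1.03.

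**Figure D5:**
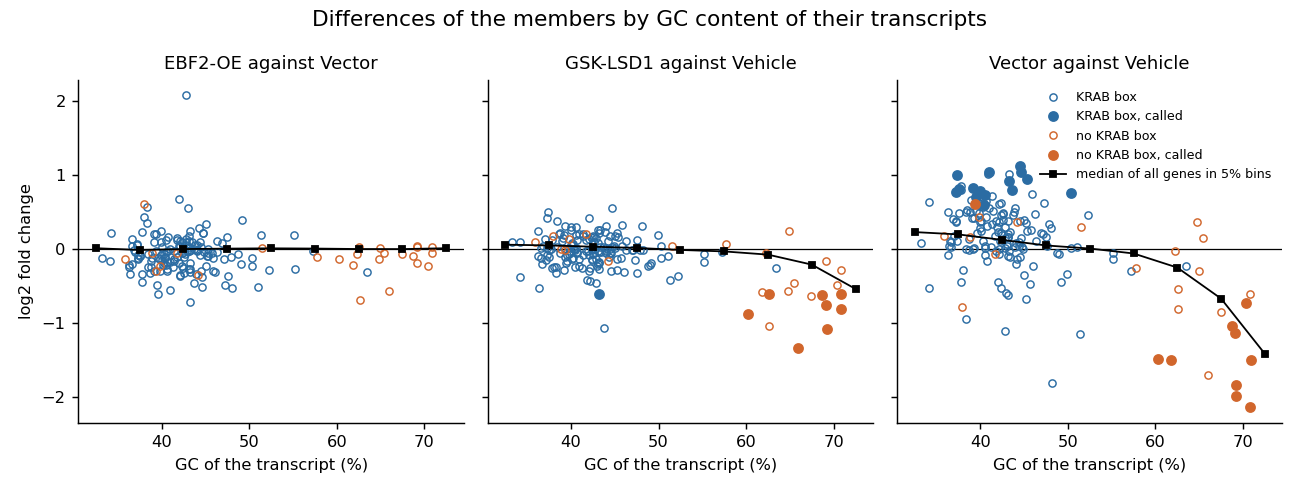
Log2 fold change (vertical axis) of the genes tested against the GC content of their transcripts in percent (horizontal axis) for the 3 comparisons; filled points are called genes and the black line is the median of all genes tested in bins of 5 percentage points. The line is flat near 0 for EBF2-OE against Vector and falls at high GC in the other 2 comparisons, where the genes without a KRAB box that were called lower lie at 60.2 to 70.9% GC and ZNF507, called higher, at 39.4%.

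ZNF358, ZNF428, ZNF444, ZNF580 and ZNF865 were called in both comparisons with Vehicle. The 2 comparisons share the Vehicle libraries, so a high value in these enters both. The log2 fold changes of GSK-LSD1 and of Vector over Vehicle were -0.76 and -1.84 for ZNF358, -0.87 and -1.48 for ZNF428 and -0.62 and -1.03 for ZNF444. For ZNF580 they were -1.08 and -1.98 and for ZNF865 -0.81 and -1.50. In EBF2-OE against Vector, which shares the Vector libraries with the latter comparison, these 5 genes lay between -0.14 and 0.05 and none was called.

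Genes of the family with described roles were read as a list. ZNF91 and ZNF93 repress SVA and LINE-1 retrotransposons, ZNF417 and ZNF587 act on HERV-K elements, ZNF274 brings SETDB1 to zinc finger genes themselves, ZNF350 (ZBRK1) works with BRCA1, ZNF420 (Apak) restrains p53 and ZNF808 is needed for pancreas development in humans. ZNF808 was at 3.82 and 3.57 TPM in Vector, 3.93 and 3.34 in EBF2-OE, 2.17 and 2.80 in Vehicle and 2.51 and 3.08 in GSK-LSD1. It was not called in any comparison, and its log2 fold change was 0.20 with GSK-LSD1 and 0.00 with EBF2. ZNF91 lay between 3.05 and 3.49 TPM in all 8 libraries, and its log2 fold changes were 0.04 with EBF2 and 0.02 with GSK-LSD1. ZNF93 had at most 4 counts in any library and a mean of 0.0546 TPM. ZNF382, with up to 8 counts, and ZNF536, ZNF568 and ZNF649 had means of 0.0458 TPM or less. ZNF224, ZNF417, ZNF350 and ZNF420 had means of 8.49, 4.74, 2.37 and 1.96 TPM, and ZNF675 had a mean of 10.4 TPM. ZNF154 had a mean of 0.201 TPM. ZNF587 had the highest mean of the list (12.2 TPM, 11.0 to 13.8 TPM over the libraries), followed by the imprinted gene ZNF331 (11.9 TPM, 9.28 to 17.6 TPM). ZNF331 was higher in both GSK-LSD1 libraries, at a log2 fold change of 0.23 that was under the fold limit (adjusted p = 0.0489, edgeR). ZNF274 was at 9.23 and 8.08 TPM in Vehicle and at 6.32 and 6.86 TPM in GSK-LSD1, without a call (-0.36 ± 0.121, adjusted p = 0.0633, edgeR). Of the 17 genes in this list, ZNF444 was the one called in a comparison.

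A list of 33 genes that act with KRAB zinc finger proteins in silencing was tested in the same fits. None was called with EBF2, where 0 of 33 had an unadjusted p under 0.05, or with GSK-LSD1, where 14 of 33 did beside 5247 of all 16059 genes, and 1 was lower in Vector than in Vehicle. Their median log2 fold changes were -0.01 with EBF2, -0.12 with GSK-LSD1 and -0.03 for Vector over Vehicle, beside 0.00, -0.01 and 0.00 for all genes. TRIM28, the corepressor that binds the KRAB box, was at 272 and 259 TPM in Vehicle and at 209 and 220 TPM in GSK-LSD1. Both treated libraries were lower, at a log2 fold change of -0.27 ± 0.051 that did not reach the fold limit (adjusted p = 0.00434, edgeR). SETDB1 was at 27.9 and 31.5 TPM in Vehicle and at 26.4 and 23.8 TPM in GSK-LSD1. MTA1, a NuRD subunit, was at 99.99 and 94.7 TPM in Vehicle, 66.6 and 74.0 TPM in GSK-LSD1 and 57.2 and 50.3 TPM in Vector, and was the gene called lower in Vector (-0.88 ± 0.087, adjusted p = 0.00781, edgeR). KDM1A itself was at 177 and 158 TPM in Vehicle and at 138 and 144 TPM in GSK-LSD1 (-0.22 ± 0.064, adjusted p = 0.0403, edgeR), under the fold limit.

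The effects of EBF2 and of GSK-LSD1 on the family were set against each other by an interaction contrast over all 8 libraries. No gene of the 180 tested differed between the 2 effects at an adjusted p under 0.05 in edgeR, as was true of 0% of all 16558 genes, while 7 of the 180, beside 1268 of the 16558, had an unadjusted p under 0.05 and DESeq2 found 0 in the family. The median difference was -0.06 for the family. For genes without a KRAB box and above 55% GC the median was 0.52, with 15 of 19 positive, and none passed the test. All genes above 55% GC had a median of 0.07, with 2902 of 4935 positive. All genes above 60% GC had a median of 0.11, with 1588 of 2520 positive. With no low-count filter, 2 genes of the family differed, beside 198 higher and 171 lower of all 27234 genes.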

How the data were processed

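Poly(A)-selected RNA of 8 SW1990 libraries was sequenced as paired reads of 150 bases. Clean reads had been mapped by the authors with HISAT2 (default settings, hg38), and raw HTSeq counts per gene were deposited. Versions, annotation and strand setting are not given in the sources used here, and the library kit is not stated to be stranded. The deposited TPM values were made by the authors by dividing each count by a gene length and rescaling each library. Coordinates are those of the deposited table.

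Tests on counts used edgeR 4.0.16 under R 4.3.3 (TMM, filterByExpr with a minimum count of 10, quasi-likelihood F-test, two-sided) over all genes, each comparison on its own 4 libraries and the interaction on 8, with Benjamini-Hochberg adjustment. Calls required both a fold change above 1.5 and an adjusted p under 0.05. Standard errors were taken from the test statistic. Intervals and p-values cover the spread of 2 libraries a group. Single values per library were compared by an exact permutation test. Scripts were tested on simulated data. Alternatives were DESeq2 1.42.0, other scalings and filters, fits without each library, a replicate block, and an offset for transcript GC content, the last added after the data were seen.

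The members and lists were chosen with earlier results of these data known. The named genes were the 10 with the largest fold change called in each comparison and direction, the 5 with the smallest p where fewer than 5 were called, the 10 with the highest mean TPM, 17 with described roles and those called in more than 1 comparison. Clusters were split at gaps above 1 Mb. Coding sequences came from GENCODE release 44, promoters from RefSeq (GRCh38.p14). Fingers were counted in the translated sequence as C, any 2 residues, C, any 12, H, any 3 to 5, H, and the KRAB A box was found with pyhmmer 0.12.3 by a profile built from 178 of these proteins, at an E-value under 0.001. GC content was known for 91.1 to 91.7% of the genes tested.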

Additional observations from a re-analysis of the deposited data

How the results depend on the processing

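Among members called lower with GSK-LSD1 (9), DESeq2 gave 3, the GC offset 4, a single fit over all 8 libraries 0 and fits without 1 library 1 to 11. Members called higher there (0) numbered 2 with no fold limit and 0 to 1 without 1 library, and the median of -0.03 became -0.059 with the GC offset and -0.045 to -0.020 without 1 library. For EBF2-OE against Vector, 1 member was called higher at an unadjusted p, and the median ranged from -0.16 to 0.059 without 1 library. For Vector over Vehicle, members called higher (16) numbered 7 with the GC offset, 25 at an unadjusted p and 0 to 29 without 1 library. Those called lower (9) numbered 15 with no low-count filter, 14 at an unadjusted p and 0 to 24 without 1 library. ZNF787 turned to 0.38 with the GC offset. The interaction gave 2 members with no low-count filter. In CPM in place of TPM the ratio of the summed level was 0.919 for GSK-LSD1 over Vehicle and 1.02 for Vector over Vehicle. The GC offset and the fits without a library use other genes or fewer libraries by construction, and for the other changes the cause was not tested. A gap of 2 Mb gave 9 clusters and one of 0.5 Mb gave 20.

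With the replicate block, 9 members were called lower with GSK-LSD1, the same genes as without it, and 0 with EBF2-OE. Same-numbered libraries deviated with correlations of 0.35 and -0.03, over 2 pairs each, too few to show whether the numbers pair the libraries, and the labels give no shared culture or day. Vector and Vehicle share only number 2, and no block was fitted for them. With 2 libraries a group, a gene with few counts could be called only at a large fold change.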
